A study of Mus musculus with 36 samples.

Results

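Left ventricles of CUG960 mice in which the CUG repeat RNA was on (+dox, 3 animals) were compared with left ventricles of CUG960 mice in which it was never on (–dox, 3 animals). These are 6 of the 36 libraries of the series, taken by the tissue and treatment in their labels with no use of any measured value. All mice carried the transgenes TREDT960I (homozygous) and MHCrtTA (hemizygous) and were 21 weeks old. TREDT960I holds interrupted CTG repeats within the human DMPK gene behind a tetracycline response element, and MHCrtTA gives the dox-dependent activator under the cardiomyocyte-specific α-myosin heavy chain promoter, so the –dox mice carried both transgenes too. The +dox mice ate dox chow from postnatal day 1 onward, at first through the nursing dams, and the –dox mice never did, so the repeat RNA and dox itself cannot be told apart here. The other cohorts served only as side values: +/–dox mice, taken off dox at 9 weeks, +dox mice given AAV for MBNL1, MBNL2 or both, and atria. The study's sample table lists the same 18 mice for ventricle and for atria.

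Myotonic dystrophy type 1 (DM1) is caused by a CTG repeat expansion in DMPK. The repeat RNA stays in nuclear foci and binds the muscleblind-like (MBNL) proteins, which regulate alternative splicing, polyadenylation and RNA stability, and CELF1, another splicing regulator, is raised in DM1 heart. In patients the heart shows slowed conduction, arrhythmia and, in some, contractile failure. Ventricular muscle draws most of its ATP from fatty acids and contracts when the ryanodine receptor encoded by Ryr2 releases calcium from the sarcoplasmic reticulum.

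The total of expected counts, the read pairs assigned to genes, was between 58800932 and 97091184 per library. Values of single libraries are given as normalised CPM (counts relative to the TMM-scaled library size), in the order of replicates 1, 2 and 3, and TPM, which also divides by transcript length, is used where levels of different genes are compared. A gene was called if its adjusted p was below 0.05 and it changed at least 1.5-fold, and log2 fold changes are +dox over –dox with their SE. Within a group, Pearson's r between libraries, across genes with a mean of at least 1 TPM and on log2(TPM + 1), was 0.975 to 0.992, and the lowest was between +dox replicates 2 and 3. Replicate 3 of both groups belonged to another set of library names than replicates 1 and 2, and Xist was at 291 CPM in –dox replicate 3 and 215 CPM in +dox replicate 3 against at most 0.867 CPM in the other 4 libraries. The set and the Xist level therefore moved together, but in the same way in both groups. The study's sample table lists 1 female and otherwise males in each group, but the labels do not tie these mice to libraries. Of 19231 genes tested, 1461 were called (7.6%). The share called higher in +dox was 4.13% and the share called lower was 3.47%, and these are the background for the counts that follow. Groups did not overlap for 33.6% of all genes tested, and 6.84% were called and did not overlap.

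**Figure D1:**
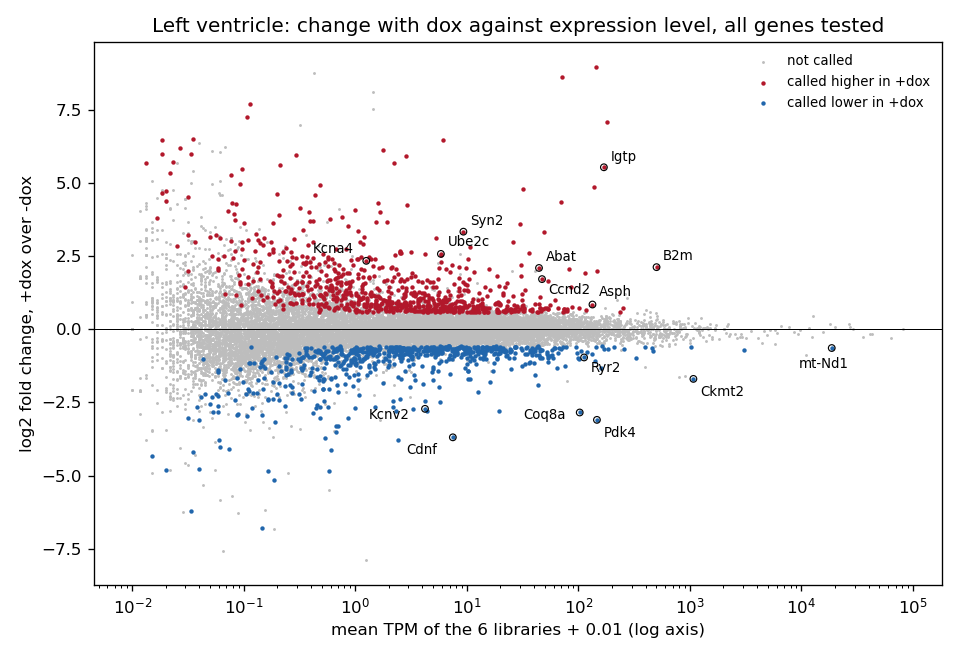
Each point is 1 of 19231 genes tested, with its mean TPM over the 6 libraries plus 0.01 on a log axis and its log2 fold change (+dox over –dox) on the vertical axis. Ckmt2, at a mean of 1075 TPM, lies at -1.70, and most called genes lie at lower levels.

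Most changes were moderate. Of the genes called higher, 359 changed by less than 2-fold, 261 by 2- to 4-fold and 174 by 4-fold or more. Of those called lower, the numbers were 418, 166 and 83. Of the 57 gene lists examined, 45 held a called member. The lists with the largest shares of members called higher were antigen presentation, DNA replication and S phase, mitosis and interferon-induced genes, and those with the largest shares called lower were sodium channels, endothelial markers and fatty acid uptake and oxidation. The lists with no called member included complex I of the respiratory chain (0 of 36), complexes III, IV and V (0 of 40), mitochondrial translation (0 of 64), SR and hnRNP proteins (0 of 35) and cardiac transcription factors (0 of 27).

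**Figure D2:**
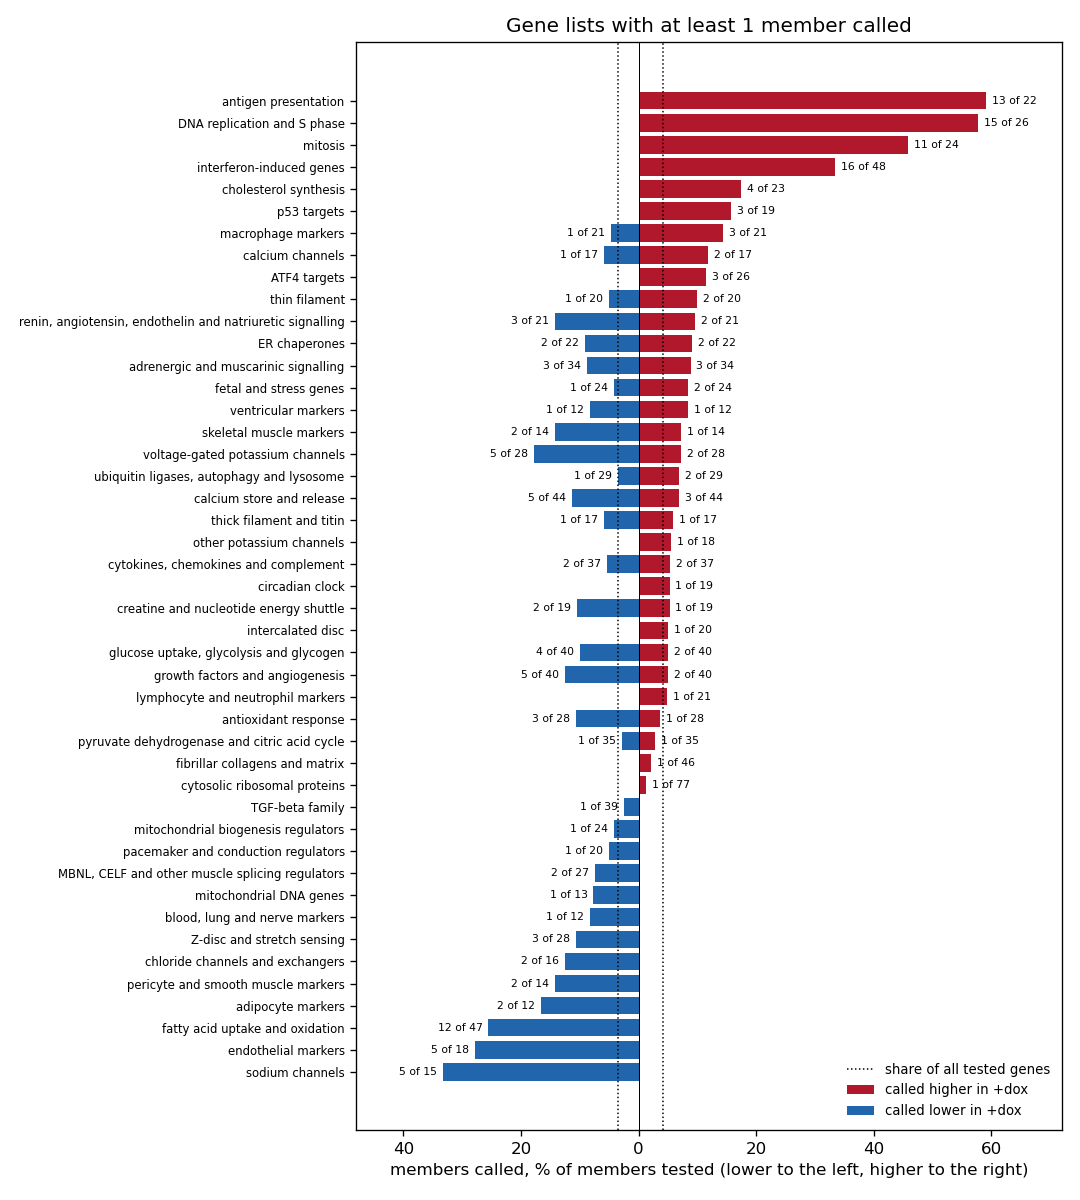
Bars give the percentage of a list's tested members that were called higher in +dox (right) or lower (left), with the counts beside them, and dotted lines give the shares over all genes tested, 4.13% and 3.47%. Antigen presentation (13 of 22) and sodium channels (5 of 15) stand at the ends.

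Ckmt2 and Coq8a, abundant mRNAs of energy metabolism, were lower in +dox ventricles. Ckmt2 (ENSMUSG00000021622.3, chromosome 13 of GRCm38, 91853387 to 91876885), the creatine kinase of heart mitochondria, was at 1967, 1911 and 1789 CPM in –dox libraries and 594, 560 and 595 CPM in +dox libraries. The groups were far apart and narrow, with a log2 fold change of -1.70 ± 0.12 (adjusted p = 6.14e-12), and per length Ckmt2 went from 1630 ± 27.5 to 519 ± 41.8 TPM (SD, n = 3). Coq8a, an atypical kinase needed to make coenzyme Q, was at 669, 609 and 585 CPM without dox and 112, 82.3 and 65.2 CPM with it, 7.18-fold lower (log2 fold change -2.84 ± 0.19, adjusted p = 2.24e-11). In the +/–dox ventricles, Ckmt2 was at 1922, 1935 and 1902 CPM and Coq8a at 745, 727 and 655 CPM, in the range of the –dox libraries or above it. Of 19 genes of the creatine and nucleotide energy shuttle, 2 fell, Ckmt2 and the mitochondrial adenylate kinase Ak4 (1.55-fold), and 1 rose, Ckmt1, the other mitochondrial creatine kinase. Ckmt1 stayed low, at 0.595, 0.311 and 0.227 CPM in –dox and 1.25, 0.993 and 0.752 CPM in +dox libraries (2.64-fold higher, adjusted p = 0.0269).

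Of 47 genes of fatty acid uptake and oxidation, 12 fell, none rose, and 43 had a log2 fold change below 0, with a list median of -0.41 beside -0.01 over all genes. Acad11, an acyl-CoA dehydrogenase, was at 316, 266 and 213 CPM in –dox libraries and 99.5, 103 and 112 CPM in +dox libraries, 2.52-fold lower. Pnpla2, the triglyceride lipase that starts the breakdown of stored fat, was at 329, 290 and 357 CPM without dox and 170, 184 and 185 CPM with it. In both genes the groups were well separated. Hadhb, a subunit of the trifunctional protein of β-oxidation, had a mean of 1014 TPM over the 6 libraries and fell by 0.60 ± 0.10 on the log2 scale (adjusted p = 7.13e-05). The largest falls of the list were those of Acot1, a cytosolic acyl-CoA thioesterase (6.59-fold lower), Angptl4, a secreted inhibitor of lipoprotein lipase (5.28-fold), and Ucp3, a mitochondrial uncoupling protein (4.40-fold). Ucp3 varied widely among the –dox animals, at 69.8, 34.1 and 22.2 CPM, and stood at 7.24, 14.0 and 7.38 CPM in the +dox animals. Angptl4 was at 18.6, 9.31 and 8.18 CPM in –dox and 2.42, 3.81 and 0.522 CPM in +dox libraries. In the fit of the 6 libraries neither the Angptl4 log2 fold change (adjusted p = 0.118) nor the Ucp3 log2 fold change (adjusted p = 0.0776) passed, and Angptl4 also lost its call in the 18 ventricular libraries (0.0522) and without +dox replicate 1 (0.0615), –dox replicate 1 (0.0957) or +dox replicate 3 (0.0834). Acot1 and its neighbour Acot2 have similar sequences, so the counts of each are uncertain. The summed TPM of the list was 17675 to 19144 in –dox libraries and 14836 to 15992 in +dox libraries, without overlap.

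Of 35 genes of pyruvate dehydrogenase and the citric acid cycle, 1 fell and 1 rose. Pdk4, which inhibits pyruvate dehydrogenase, was at 1194, 621 and 555 CPM in –dox libraries and 101, 122 and 54.1 CPM in +dox libraries, while Pdk3, a kinase of the same family, went from 1.77, 1.90 and 1.97 CPM to 3.26, 3.01 and 3.35 CPM (1.71-fold higher, adjusted p = 0.00379). Of 40 genes of glucose uptake, glycolysis and glycogen, 4 fell and 2 rose, with a list median of -0.14. Slc2a4, the insulin-regulated glucose transporter, fell from 480, 448 and 452 CPM to 284, 299 and 286 CPM, 1.59-fold lower. The others that fell were Pfkfb1, a regulator of glycolysis (5.46-fold), the phosphorylase kinase subunit Phkg1 (1.69-fold) and the glycogen phosphorylase Pygb (1.52-fold). Aldoc, a brain form of aldolase, rose from 0.153, 0.104 and 0.151 CPM to 0.523, 0.282 and 0.292 CPM. Pfkfb3, of the same family as Pfkfb1, was called higher (2.24-fold, adjusted p = 0.0349) although its groups overlapped, at 10.7, 10.4 and 9.22 CPM without dox and 14.2, 9.70 and 44.2 CPM with it. Mlxipl, a glucose-responsive transcription factor, fell 2.90-fold. Among 13 protein-coding genes of mitochondrial DNA, mt-Nd1 fell (log2 fold change -0.64 ± 0.11, adjusted p = 4.58e-05) and the other 12 were not called, and the ribosomal mt-Rnr2 fell by 0.71 ± 0.13. The summed TPM of the 13 genes was 279320 to 305560 in –dox libraries and 279250 to 312020 in +dox libraries, with full overlap.

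Called members of the sodium channel list and of the list of chloride channels and exchangers were lower. Potassium and calcium channel genes were called in both directions. Of 15 sodium channel genes, 5 fell and none rose. They included Scn10a, at 3.31, 5.28 and 3.39 CPM in –dox and 0.671, 0.587 and 1.60 CPM in +dox libraries (4.29-fold lower, but at a mean of 0.420 TPM), and Scn4a, the skeletal muscle channel, at 89.99, 65.1 and 48.3 CPM and 34.6, 41.5 and 36.4 CPM (1.81-fold lower). In both the groups did not overlap, and Scn3a, at a mean of 0.357 TPM, fell 1.55-fold. Among the fits that left out 1 library, Scn3a kept its call only without +dox replicate 3. The sodium channel count was 3 when replicate 1 of either group was left out.

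Kcna4, a pore subunit of the slow transient outward potassium current, was at 1.12, 1.72 and 2.23 CPM in –dox libraries and 9.71, 8.45 and 7.46 CPM in +dox libraries, 5.06-fold higher (adjusted p = 7.84e-11). Kcnip2, the subunit that the fast transient outward current needs, went the other way, from 88.3, 80.2 and 99.2 CPM to 32.3, 34.1 and 53.6 CPM (2.23-fold lower, adjusted p = 5.22e-05). Kcnv2, a modifier subunit of Kv2 channels, fell from 37.3, 27.8 and 32.3 CPM to 3.24, 4.41 and 7.23 CPM, and Kcna5, of the ultrarapid delayed rectifier, fell 1.58-fold. Kcne1, a subunit of the slow delayed rectifier, went from 0.0680, 0.193 and 0.492 CPM to 1.42, 1.81 and 0.722 CPM (5.30-fold higher, adjusted p = 0.00520). The Kcne1 log2 fold change was 2.41, or 3.30 without –dox replicate 3, and its call was lost with a replicate block in the 6 libraries (adjusted p = 0.0904). In all, 2 of 28 voltage-gated potassium channel genes rose and 5 fell. Clcn1, the skeletal muscle chloride channel whose misprocessing underlies myotonia in DM1, was at 2.65, 2.58 and 3.52 CPM without dox and 0.273, 0.203 and 0.169 CPM with it. Ano5 fell from 4.38, 4.42 and 2.33 CPM to 0.102, 0.226 and 0.0461 CPM. Clcn1 and Ano5 were the 2 called members of the 16 tested genes listed as chloride channels and exchangers.

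Of 44 genes of the calcium store and its release, 5 fell and 3 rose, and of 17 calcium channel genes 1 fell and 2 rose. Ryr2 (chromosome 13, 11553102 to 12106945) was at 2175, 2401 and 2027 CPM in –dox libraries and 1154, 1174 and 1060 CPM in +dox libraries, a log2 fold change of -0.96 ± 0.07 (adjusted p = 2.24e-11), and the 2 groups were narrow and apart. Cacna1c, the L-type calcium channel, fell 1.55-fold from 456, 451 and 495 CPM to 306, 311 and 290 CPM, and Jph1, which holds the reticulum against the plasma membrane, fell 1.57-fold. Cacna1d, another L-type channel, rose 2.33-fold, and Ryr1, the skeletal muscle receptor, rose 3.11-fold but stayed near 0.110 TPM. Cacna1g, a T-type channel, was called higher (2.28-fold) although its groups overlapped: it stood at 28.5, 36.6 and 51.6 CPM without dox and 97, 120 and 48.4 CPM with it. Hcn4, the pacemaker channel, was at 8.48, 14.3 and 20.9 CPM in –dox and 37.3, 36.5 and 9.17 CPM in +dox libraries and did not pass the test (adjusted p = 0.228). Gja5, the connexin of the fast conduction system, was at 4.76, 8.14 and 7.35 CPM and 4.25, 4.55 and 4.70 CPM (adjusted p = 0.0580). Cxadr, a cell junction receptor of the intercalated disc, rose 1.60-fold.

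**Figure D3:**
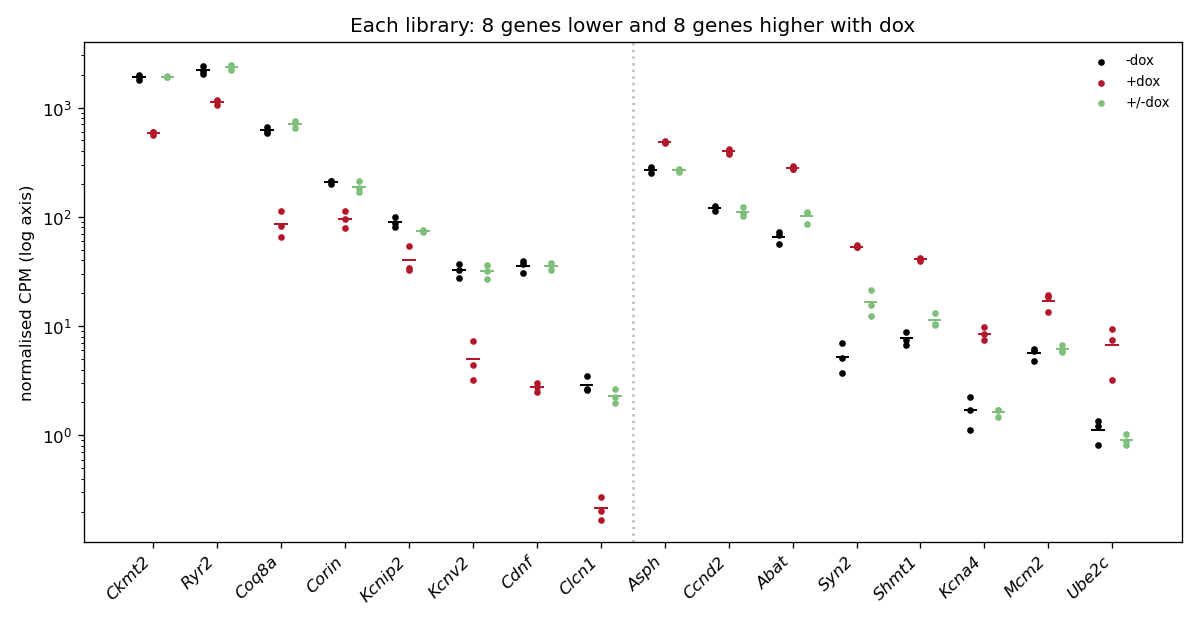
Points are the normalised CPM of single libraries on a log axis, with a bar at the mean of the 3 animals, for 8 genes lower and 8 genes higher in +dox (red) than in –dox (black), and green points are +/–dox libraries. In each of the 16 genes the red points lie clear of the black ones. The genes were chosen with earlier results known, so this follows from the choice. Groups did not overlap for 33.6% of all genes tested. For Syn2 the green points, at 21.3, 15.6 and 12.4 CPM, lie between the red and the black ones.

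Few sarcomere and cytoskeletal genes were called. Of 17 genes of the thick filament and titin 1 rose and 1 fell, and of 20 thin filament genes 2 rose and 1 fell. Of 28 Z-disc and stretch sensing genes 3 fell, and of 22 genes of the dystrophin complex and costamere 0 were called. Nebl, the thin filament protein nebulette, rose 1.60-fold from 498, 515 and 413 CPM to 745, 743 and 787 CPM. Pdlim7, a Z-disc adaptor, fell 2.59-fold (28.3, 26.1 and 29.0 CPM to 11.9, 13.3 and 6.97 CPM). Myot, the Z-disc protein myotilin, fell 2.28-fold, Mybpc2, the fast skeletal form of myosin-binding protein C, 6.87-fold, and Nrap, of nascent myofibrils, 1.59-fold. Ankrd23, a titin-associated stretch sensor, was at 565, 749 and 809 CPM without dox and 508, 402 and 161 CPM with it, and its adjusted p was 0.0497. Tpm2 was called higher, but with 79.6, 75.1 and 27.5 CPM in +dox its replicate 3 lay on the –dox values of 32.9, 40.3 and 27.5 CPM. The stress markers varied among animals: Nppa, atrial natriuretic peptide, was at 42.6, 330 and 151 CPM in –dox and 170, 99.7 and 51.3 CPM in +dox libraries (adjusted p = 0.355), and Acta1, skeletal actin, at 447, 1021 and 414 CPM and 362, 221 and 189 CPM (adjusted p = 0.166). Of 21 genes of renin, angiotensin, endothelin and natriuretic signalling, 3 fell and 2 rose. Of 34 genes of adrenergic and muscarinic signalling, 3 fell and 3 rose. Corin, the protease that activates natriuretic peptides, fell 2.16-fold, the natriuretic peptide receptor Npr1 1.54-fold and the α1A-adrenergic receptor Adra1a 2.24-fold. The angiotensin receptor Agtr1a rose 1.98-fold and angiotensinogen, Agt, 1.96-fold.

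Genes of DNA replication and mitosis rose. Of 26 genes of replication and S phase, 15 were called higher and none lower (list median 0.73), and of 24 mitosis genes 11 were called higher and none lower (median 1.31). Mcm2, a subunit of the replicative helicase, was at 5.90, 4.81 and 6.21 CPM in –dox libraries and 18.6, 19.2 and 13.4 CPM in +dox libraries (log2 fold change 1.60 ± 0.18, adjusted p = 1.16e-07). Ccne1, cyclin E1, rose 6.27-fold, the transcription factor E2f1 4.44-fold and Rrm2, of ribonucleotide reductase, 3.57-fold. Ube2c, a ubiquitin-conjugating enzyme of the anaphase-promoting complex, was at 1.22, 0.816 and 1.34 CPM without dox and 9.47, 7.40 and 3.24 CPM with it, and Cdk1, the mitotic kinase, at 1.19, 0.682 and 1.67 CPM and 6.24, 4.16 and 2.53 CPM. In both, replicate 3 was the lowest +dox library but remained above every –dox library. Levels were low, with summed TPM over the mitosis list of 11.2 to 22 in –dox and 29.6 to 63.4 in +dox libraries. Mki67, a proliferation marker, was at 8.02, 6.67 and 11.9 CPM and 20.2, 12.7 and 10.9 CPM (adjusted p = 0.316), and Top2a did not pass either (adjusted p = 0.0966). Ccnd2, cyclin D2, chosen after its values were seen, was at 122, 126 and 113 CPM in –dox and 419, 377 and 392 CPM in +dox libraries, 3.28-fold higher. With replicates 1 and 2 alone the counts were 18 of 26 and 13 of 24, while the mitosis count was 4 without +dox replicate 1 and 5 without –dox replicate 1 or without –dox replicate 2. Of 19 p53 targets, 3 were called higher and none lower, among them Pmaip1 (2.23-fold) and Eda2r (2.21-fold). The median of that list was 0.15, or 0.17 in replicates 1 and 2 and -0.001 in the replicate 3 pair. The cell types that held these mRNAs were not analysed here.

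Interferon-induced and antigen presentation genes rose with a wide spread among the +dox animals. Of 48 interferon-induced genes, 16 were called higher and none lower (median 0.96), and of 22 antigen presentation genes 13 were called higher and none lower (median 1.94). Igtp, an interferon-inducible GTPase, was at 9.40, 16.6 and 6.74 CPM in –dox libraries and 308, 15.9 and 1203 CPM in +dox libraries. Replicate 2 of +dox lay within the –dox range, and the other 2 lay far above it. The order was shared: Iigp1 was at 288, 11 and 1554 CPM in +dox against 12.7 to 33.1 CPM in –dox libraries, and Irgm2 at 262, 20.7 and 829 CPM against 12.1 to 27.8 CPM. B2m, the light chain of MHC class I was at 82.8, 137 and 94.1 CPM in –dox and 345, 156 and 869 CPM in +dox libraries, without overlap. The MHC class II genes H2-Ab1 (37.9, 18.6 and 73.7 CPM in +dox, 7.24 to 11.6 CPM in –dox) and Cd74 (155, 70.5 and 278 CPM against 39.0 to 52.5 CPM) also kept all +dox libraries above. Over the whole antigen presentation list, however, the median log2 difference to the –dox mean was 0.28 in +dox replicate 2. It was 0.24 in –dox replicate 2.

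The number of these calls depended on the spread shared by all 36 libraries and on several single libraries. In a fit of the 6 libraries alone, 1 interferon-induced gene and 0 antigen presentation genes were called, and with replicates 1 and 2 alone 0 and 0. Without +dox replicate 3 the counts were 3 and 0, without +dox replicate 2 they were 27 and 19, and without –dox replicate 1 or without –dox replicate 3 they were 7 and 1. Without +dox replicate 1 they were 13 and 8. High values also occurred in other ventricular cohorts: the list median of antigen presentation, as log2 difference to the –dox mean, was 1.64, 0.28 and 2.85 in the +dox libraries, 0.26, -0.07 and 1.19 in the +/–dox libraries and 2.07 and 1.46 in replicate 3 of the +dox mice given MBNL1 or MBNL2. Replicate 3, of the second set of library names, was the highest in these 4 cohorts. In the mice given both vectors every replicate was of that second set, at 1.15, 0.65 and -0.17. The study's sample table lists only males for that cohort. The median log2 difference between +dox and –dox was 1.01 within the first set and 2.91 in the replicate 3 pair. Within these 6 libraries the library set, the sex or Xist level and single animals cannot be told apart. Markers of immune cells moved with part of this. The macrophage genes Ccr2 (4.02, 1.63 and 7.83 CPM in +dox, 0.969 to 1.63 CPM in –dox) and Cx3cr1 (6.12, 2.60 and 8.32 CPM against 2.58 to 3.22 CPM) had the same order of animals. Cx3cr1 overlaps Gorasp1, Csrnp1 and Xirp1 on the same strand, so its counts are uncertain. The 21 macrophage markers summed to 225 to 254 TPM in –dox and 307, 244 and 382 TPM in +dox libraries. Of these, 3 were called higher (Ccr2, Cx3cr1 and Lgals3) and 1 lower (Cd163). The 21 tested markers of lymphocytes and neutrophils, none of them at 0 in all 6 libraries, summed to 10.2 to 17.8 TPM and 13.8, 9.11 and 22.1 TPM, with 1 called, Cd3g. The part of immune cells in the interferon and antigen presentation values was not tested.

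**Figure D4:**
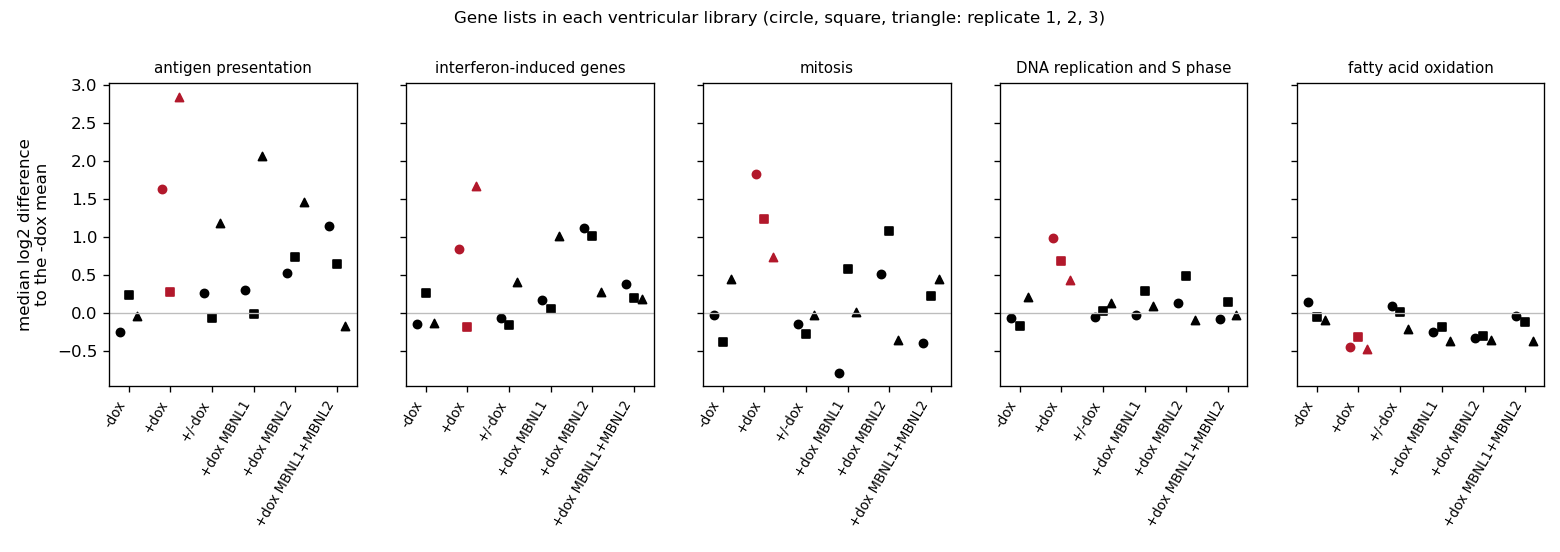
Each symbol is 1 of 18 ventricular libraries (circle, square and triangle for replicates 1, 2 and 3, +dox in red), at the median over the list's tested members of the log2 difference to the –dox mean. For antigen presentation the +dox libraries lie at 1.64, 0.28 and 2.85 and the –dox libraries at -0.24, 0.24 and -0.04. For fatty acid oxidation the +dox libraries lie together at -0.45, -0.32 and -0.47.

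The promoters of 5 of the genes above are shown, with short motifs marked that occur in some members of these groups. Sequences are from RefSeq on GRCm38.p6, run 5′ to 3′ from 250 bases before to 50 bases after the start site, and matched 12837 tested genes. Capitals mark GAAA followed, after any 2 bases, by another GAAA, the core of the interferon-stimulated response element, in the first 3, CCAAT in B2m, Ube2c and Cdk1, and TTTGAA, the cell cycle homology region, in the last 2, on either strand. Igtp lies at chr11:58199306-58199605 on the plus strand, Irgm2 at chr11:58214727-58215026 (plus), B2m at chr2:122147437-122147736 (plus), Ube2c at chr2:164769679-164769978 (plus) and Cdk1 at chr10:69352863-69353162 (minus).
Igtp: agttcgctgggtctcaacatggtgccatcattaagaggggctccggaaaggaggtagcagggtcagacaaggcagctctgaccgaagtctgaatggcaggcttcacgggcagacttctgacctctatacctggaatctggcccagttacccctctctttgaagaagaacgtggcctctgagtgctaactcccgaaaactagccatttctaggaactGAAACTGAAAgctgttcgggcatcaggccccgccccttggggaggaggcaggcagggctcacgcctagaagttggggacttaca
Irgm2: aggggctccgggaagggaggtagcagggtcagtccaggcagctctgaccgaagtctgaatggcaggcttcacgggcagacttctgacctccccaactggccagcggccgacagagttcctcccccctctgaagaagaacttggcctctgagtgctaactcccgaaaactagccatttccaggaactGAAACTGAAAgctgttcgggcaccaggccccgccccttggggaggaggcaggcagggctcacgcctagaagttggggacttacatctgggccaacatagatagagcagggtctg
B2m: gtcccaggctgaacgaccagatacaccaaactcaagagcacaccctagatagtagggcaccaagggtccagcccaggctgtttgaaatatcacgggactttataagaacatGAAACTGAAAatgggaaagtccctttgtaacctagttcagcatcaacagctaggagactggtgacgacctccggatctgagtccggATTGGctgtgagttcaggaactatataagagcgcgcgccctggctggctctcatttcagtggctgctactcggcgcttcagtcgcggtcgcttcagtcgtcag
Ube2c: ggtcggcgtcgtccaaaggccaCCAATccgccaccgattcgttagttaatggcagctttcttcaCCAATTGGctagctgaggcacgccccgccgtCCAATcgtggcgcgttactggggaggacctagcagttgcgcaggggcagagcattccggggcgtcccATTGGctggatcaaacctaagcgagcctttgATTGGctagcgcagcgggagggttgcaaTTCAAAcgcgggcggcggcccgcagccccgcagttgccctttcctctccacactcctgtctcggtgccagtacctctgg
Cdk1: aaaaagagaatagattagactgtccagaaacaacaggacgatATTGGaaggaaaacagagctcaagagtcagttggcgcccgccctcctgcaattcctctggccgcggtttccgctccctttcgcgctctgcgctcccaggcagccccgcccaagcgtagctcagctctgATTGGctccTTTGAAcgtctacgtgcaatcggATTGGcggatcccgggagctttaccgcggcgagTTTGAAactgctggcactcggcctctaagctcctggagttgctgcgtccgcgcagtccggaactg

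This GAAA pair occurred in 9 of the 11 called interferon-induced genes with a promoter in the table, in 22 of all 34 members of that list, called or not, and in 3.11% of the promoters of all tested genes. Of the 17 antigen presentation genes with a promoter, B2m among them, 3 held the GAAA pair and 14 held CCAAT. In Igtp the match ran from -34 to -25, in Irgm2 from -64 to -55 and in B2m from -139 to -130 relative to the start site. Irgm2 and Igtp lie next to each other on chromosome 11 and their annotations overlap on the same strand, so their counts are uncertain. TTTGAA occurred in 15 of 20 mitosis promoters, 6 of the 34 interferon-induced promoters (4 of the 11 called) and 12.4% of all. It also stands unmarked in Igtp and B2m. In the mitosis promoters CCAAT occurred in 17 of 20, beside 38.2% of all. In Ube2c, 2 of the CCAAT matches on opposite strands overlap. For S phase genes, the E2F site TTTGGCGC occurred in 5 of 20 and 0.904% of all. A match is a description of the sequence only, and no binding was measured.

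Markers of vessels fell. Of 18 endothelial markers, 5 were called lower and none higher, with a list median of -0.48 and a summed level of 629 to 712 TPM in –dox and 499 to 549 TPM in +dox libraries, without overlap. Cldn5, a tight junction protein, fell 1.73-fold, Car4, a capillary carbonic anhydrase, 1.72-fold, the receptor Tie1 1.59-fold and the adhesion molecule Esam 1.51-fold. Pecam1 went from 161, 147 and 165 CPM to 110, 120 and 121 CPM (adjusted p = 0.000502), a change under 1.5-fold. Of 14 pericyte and smooth muscle markers 2 fell, among them Notch3 (1.57-fold), and their sum was 982 to 1163 TPM and 762 to 789 TPM. The sum of 15 cardiac fibroblast markers overlapped (1367 to 1577 TPM and 1368 to 1535 TPM), with 0 called at the threshold. In bulk tissue, fewer cells of a type and less RNA per cell cannot be told apart.

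Of 22 chaperone genes of the endoplasmic reticulum, 2 rose and 2 fell. Cdnf, a neurotrophic factor resident in the reticulum, was at 39.1, 37.0 and 30.6 CPM in –dox and 2.76, 2.51 and 2.99 CPM in +dox libraries, and its paralog Manf went the other way, from 19.2, 21.3 and 16.2 CPM to 30.1, 30.8 and 31.3 CPM (1.63-fold higher, adjusted p = 1.91e-06). Herpud1, of degradation at the reticulum, fell 1.70-fold, and the chaperone cofactor Sdf2l1 rose 2.08-fold. Of 26 ATF4 targets, 3 rose and none fell: Ddit3 (1.61-fold), Sesn2 (1.78-fold) and Aldh1l2 (1.79-fold), with a list median of 0.02. Of 23 cholesterol synthesis genes, 4 rose and none fell: Lss (3.48-fold), Mvd (2.34-fold), Idi1 (1.99-fold) and Fdps (1.79-fold), with a list median of 0.36.

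Shmt1, the cytosolic serine hydroxymethyltransferase, was at 8.89, 6.78 and 7.48 CPM in –dox and 39.5, 41.7 and 41.3 CPM in +dox libraries. Abat, which breaks down GABA, was at 67.5, 72.2 and 56.5 CPM and 274, 289 and 276 CPM, 4.27-fold higher (adjusted p = 6.48e-10). Aass, the first enzyme of lysine breakdown, rose 8.67-fold, Syn2, a synaptic vesicle protein, 10.1-fold and Necap2, an endocytosis adaptor, 4.18-fold. The +dox libraries of Syn2, at 52.8, 54.9 and 52.6 CPM, differed less from each other than its –dox libraries, at 5.08, 6.99 and 3.73 CPM. Fah, of tyrosine breakdown, fell 3.24-fold, the thioesterase Acot7 2.99-fold, Taf1a, of RNA polymerase I initiation, 3.32-fold and Nudt6 3.21-fold. Nudt6 overlaps Fgf2 on the opposite strand, and Syn2 overlaps Timp4. Coq8a likewise overlaps Cdc42bpa on the opposite strand, and Acad11, Cacna1c, Cacna1d, Gja5, Cxadr, Nrap, Pfkfb1 and Shmt1 overlap other genes in that way. Agtr1a, Manf and Phkg1 overlap genes on the same strand. The strand setting of the counting was not given, so the counts of these genes are uncertain. Crip2 (1.69-fold), Phyh (1.56-fold) and Ivns1abp (1.51-fold) were abundant genes that fell.

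Among the RNA-binding proteins of the DM1 pathway, Mbnl1, Mbnl2 and Celf1 were not called. Mbnl1 was at 179, 209 and 165 CPM in –dox and 218, 206 and 224 CPM in +dox libraries (log2 fold change 0.23 ± 0.09, adjusted p = 0.0614). Mbnl2 was at 288, 307 and 249 CPM and 358, 352 and 375 CPM, without overlap and with an adjusted p of 0.00442, but 1.28-fold. Celf1 was at 139, 147 and 124 CPM and 180, 174 and 168 CPM (1.27-fold, adjusted p = 0.00119). Of 27 genes of this list 2 were called, Rbfox1 (2.12-fold lower) and Nova2 (1.58-fold lower). Mouse Dmpk was at 556, 495 and 543 CPM and 583, 644 and 504 CPM (adjusted p = 0.374), and RNA of the transgene itself was not analysed here.

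Counts and TPM of a gene can move apart when the mix of its transcripts changes, since TPM divides by the length of the transcripts that RSEM assigns reads to. The ratio of count to TPM was therefore taken as an estimated transcript length, a measure added after the data were seen, and tested with limma on the log2 scale for 8173 genes with a mean of at least 5 TPM. At an adjusted p below 0.05 and a change of at least 1.2-fold, 11 genes passed (0.135%), 5 longer and 6 shorter in +dox. Asph, which encodes junctin and aspartyl hydroxylase forms from 1 gene, had relative lengths of 1.01, 0.971 and 1.02 in –dox and 1.51, 1.54 and 1.55 in +dox libraries (adjusted p = 0.00382). For Asph the count rose by 0.85 ± 0.09 on the log2 scale, while the log2 ratio of mean TPM was 0.27. Ssr1, of the translocon, was at 0.966, 1.00 and 1.03 and 1.57, 1.56 and 1.58.

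Rabgap1l, Rnf130 and Tmem245 were also longer, and Rabgap1l fell 2.21-fold in counts as well. The genes that were shorter were Speg, a kinase of the calcium release unit, Tmod3, a pointed-end actin capping protein, Nfatc2, a calcineurin-regulated transcription factor, Nsmce2, Fam49b and Phactr2. Speg was at 1.02, 0.985 and 0.997 in –dox and 0.722, 0.672 and 0.756 in +dox libraries, and its count did not reach 1.5-fold (1.49-fold lower). Leaving out 1 library left 3 to 8 genes: 3 without –dox replicate 1, 4 without –dox replicate 3 or +dox replicate 1, 6 without +dox replicate 2, 7 without –dox replicate 2 and 8 without +dox replicate 3. Which exons, start sites or ends differ was not analysed here.

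**Figure D5:**
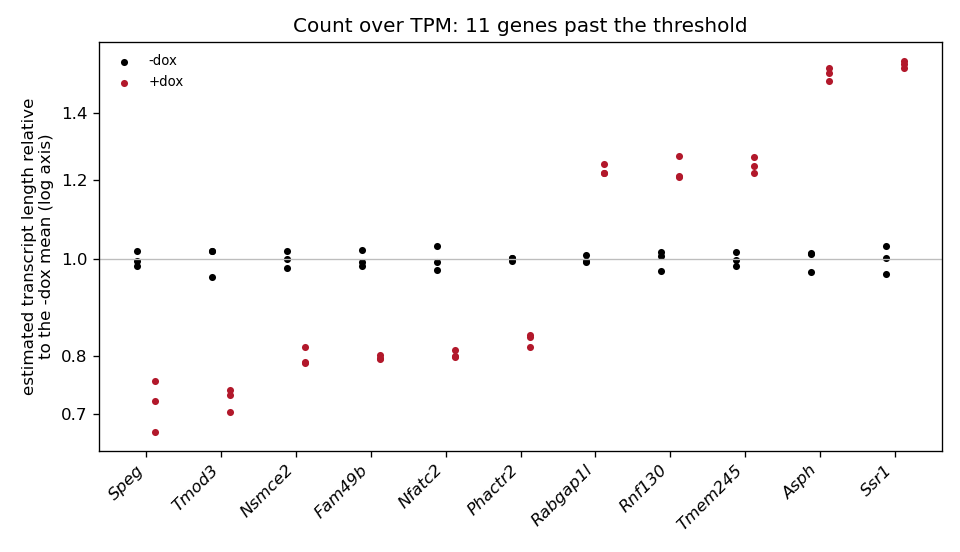
Points are single libraries (–dox black, +dox red) of the 11 genes past the threshold, with the estimated transcript length relative to the –dox mean on a log axis. The +dox libraries of Asph lie at 1.51 to 1.55 and those of Speg at 0.672 to 0.756. The groups overlap in none of the 11 genes, which were selected for this difference.

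The same lists were set beside 2 other contrasts, one of which shares the +dox libraries. Against the +/–dox ventricles 6.6% of genes were called (3.52% higher and 3.09% lower in +dox), and against –dox in the atria 5.23% (2.4% higher and 2.83% lower). The median of the fatty acid list was -0.35 against +/–dox ventricles and -0.24 in the atria. For S phase genes it was 0.67 and 0.17, for mitosis genes 1.34 and 0.35, for interferon-induced genes 0.97 and 0.91 and for antigen presentation 1.31 and 1.22. Fewer members of these lists were called in the atria: 2 of 48 interferon-induced, 6 of 22 antigen presentation and 0 of 24 mitosis genes. For S phase it was 1 of 26 genes, and for the fatty acid list 8 of 47. The ventricular change itself differed from the atrial one at an adjusted p below 0.05 for 198 genes (1.03%), among them 4 of the 26 S phase genes and none of the interferon-induced, antigen presentation or mitosis genes. That fit treats the 2 tissues as independent, although they came from the same mice. With the mouse as a term, taking ventricle and atria of a cohort with the same replicate number as 1 mouse, the difference passed for 592 genes (3.08%), among them 7 S phase genes, 2 of the 48 interferon-induced genes and no antigen presentation or mitosis genes. For Ckmt2 the atrial log2 fold change, at -1.78, was close to the ventricular value, with a difference of 0.09 (adjusted p = 0.924), or 0.10 with the mouse as a term (adjusted p = 0.853).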

How the data were processed

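RNA-seq of poly(A)-selected RNA was analysed for 3 –dox and 3 +dox left ventricles, with the other 30 libraries of the series used only to estimate the spread and for side values. Per the labels and the study's methods, the authors aligned read pairs to mm10 with STAR 2.7.10b and quantified GENCODE M25 genes with RSEM 1.3.1. They deposited expected counts (estimated counts per gene, not normalised) and TPM, which the authors' RSEM run scales to transcript length and to a fixed total per library. The strand setting of the counting is not given in the sources used here. Columns of the authors' own comparisons were not used.

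Expected counts were rounded to whole numbers, filtered with filterByExpr and TMM-scaled, and all 36 libraries in 12 groups were fitted with edgeR 4.0.16 (quasi-likelihood test, R 4.3.3), with Benjamini-Hochberg adjustment over 19231 genes. The test was tried on simulated counts with the same spread in all groups, and genes near the floor were not among those changed. It recovered 80% of genes changed by 1 and 96% of genes changed by 2 on the log2 scale, with 6 false calls. Estimated transcript length was tested with limma 3.58.1, and DESeq2 1.42.0 was an alternative. Coordinates are those of GENCODE M21 on GRCm38, and promoters are from RefSeq. Within a tissue, replicates are separate animals, per the study's methods. Ventricles and atria came from the same 18 mice, per its sample table, which the 12-group fit ignores. The labels give no mouse, but 17 of 18 ventricular libraries deviated most like the atrial library of their own number. Correlations with that library were 0.123 to 0.257 in –dox and +dox and 0.041 to 0.246 in the other cohorts. Except in mice given both vectors, replicate 3 was the only library of the second set of names in each tissue of a cohort. For replicate 3 of those cohorts the set and the mouse cannot be told apart. The mouse was added as a term in an alternative chosen after seeing the data. Between 12047 and 12374 genes reached 1 TPM in a library. With 3 animals per group the spread between animals sets the precision.

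Members and lists were chosen with earlier results of these data known. Named were the 15 largest rises and 15 largest falls among called genes with at least 5 TPM and no overlap, up to 3 called genes per list and direction, genes the study names, the 10 most abundant called genes, and the 8 largest ventricle minus atria differences. Some genes are not reported here. Uncalled list members are given by value. Acad11, Pnpla2, Acot2, Scn3a, Kcna5, Jph1, Mcm2, Cdk1, Ccnd2, Irgm2, Cd74, Pygb, Esam, Fdps and the genes of changed length were chosen after their values were seen.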

Additional observations from a re-analysis of the deposited data

Results flagged for a closer look

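The +dox change differed between ventricle and atria, by a test of the difference itself in the fit of all 36 libraries (adjusted p below 0.05), for 17 of 127 genes examined by name, beside 1.03% of all genes tested. For 8 of the 17 (Gm14261, Syn2, Igfbpl1, Aass, Dlg4, Plekha7, Rerg and Gm15543) the size of this difference was a reason they were named. Many other named genes were called in the ventricle or chosen after their values were seen. The count is therefore partly set by the choice of genes, and the share of all genes is not a like background for it. Ventricles and atria came from the same mice, which this fit ignores, and with the mouse as a term all 17 still passed. The values are differences of log2 fold changes, ventricle minus atria.

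Among channel and junction genes the difference was -0.43 for Cacna1c, 1.60 for Kcna4, -2.12 for Kcnv2 and 1.73 for Gja5. Gja5 fell in the atria (log2 fold change -2.31) and was not called in the ventricle. Among metabolic genes it was 2.32 for Aass, 1.27 for Abat, -1.12 for Fah and -0.96 for Acot7, and for the replication gene Mcm2 it was 1.21.

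The other differences were those of Syn2 (2.55), Plekha7 (2.21), Igfbpl1 (2.36), Rerg (-2.21), Dlg4 (-2.29), Gm14261 (3.29), Gm15543 (-2.06) and Sbk2 (-1.31). The differences of Cacna1c, Fah and Sbk2 lost the call under some of the alternatives, and those of the other 14 kept it under all that were run.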

How the results depend on the processing

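With no fold cutoff 4021 genes were called (2167 higher, 1854 lower), at 2-fold 684 (435 and 249), and in a test against a 1.5-fold change 233 (145 and 88). Limma on log2(TPM + 1) called 714 (455 and 259). RLE scaling (1466), DESeq2 (1666), no filter (1254), a stricter filter (1357) and the 6 libraries alone (1117) stayed within 1.5 times of 1461.

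In the order interferon-induced and antigen presentation, the called counts (16 and 13) were 2 and 0 against 1.5-fold, 1 and 0 in the 6 libraries, 5 and 1 in the 18 ventricular libraries, 3 and 4 by limma on log2(TPM + 1), 4 and 4 on log2(TPM + 0.1), and 0 and 0 with replicates 1 and 2 alone (chosen after seeing the data). In the same order, the library set as a term in the 18 ventricular libraries gave 4 and 12, DESeq2 gave 22 and 19, and no filter gave 11 and 7. At 2-fold and against 1.5-fold, S phase genes numbered 8 and 5, fatty acid genes 5 and 2 and sodium channel genes 1 and 2, and against 1.5-fold mitosis genes numbered 2. With no fold cutoff 27 fatty acid genes fell. Limma on log2(TPM + 1) gave 3 sodium channel genes. The cause was not tested.

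Replicate numbers did not pair –dox with +dox samples (correlations of deviations -0.07, 0.03 and -0.01 for numbers 1, 2 and 3, and not every sample correlated best with its own number). A replicate block in the 6 libraries called 820 genes (445 higher, 375 lower) against 1117 without it, with 0 interferon-induced, 0 antigen presentation, 6 mitosis and 3 sodium channel genes.

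Leaving out 1 library gave 1097 to 1470 called genes, 604 to 802 higher, 493 to 721 lower, 3 to 27 interferon-induced, 0 to 19 antigen presentation, 10 to 17 S phase, 4 to 12 mitosis, 10 to 15 fatty acid, 3 to 5 sodium channel and 3 to 8 length genes. For the ventricle minus atria difference (198 genes) DESeq2 gave 433 and a replicate block with the mouse as a term 592 (chosen after seeing the data). Without 1 library it gave 103 to 212, with 129 and 115 without ventricular +dox or –dox replicate 1, 121 and 103 without atrial +dox replicate 1 or 2, and 128 and 112 without atrial –dox replicate 1 or 2.

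Of 2411 values of 127 named genes under alternatives, 2138 kept direction and call, 260 lost and 12 gained the call, and 1 reversed: Nppa, not called, was at 0.15 without –dox replicate 2 and at -1.21 to 0.15 over the libraries left out. Of the 127 genes, 70 kept both throughout.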

Other observations

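Gene families grouped by symbol, with at least 15 tested members, gave further counts, and some of their members are also in the lists above. Of 18 Ccl chemokine genes 4 were called higher and 2 lower (33.3% called, beside 7.6% of all genes), and of 22 Pde genes, which hold the phosphodiesterases that break down cyclic nucleotides, 1 was called higher and 5 lower (27.3%). Among 28 Cox, 56 Eif and 52 Mrpl genes, which hold subunits of cytochrome oxidase, translation initiation factors and mitochondrial ribosomal proteins, 0 were called by edgeR.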
